A study of Labrus bergylta with 24 samples.

Results

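The hind-gut of the ballan wrasse (Labrus bergylta), segment 4 of the intestine, was compared with segment 1, its most anterior part. All gene models with a normalized read count of 10 or more in at least 6 of the 12 libraries were included, which kept 18299 of 27392 gene models, 16618 of them with a gene name. Adult fish were taken from a commercial farm, the whole gut of each was cut into 4 consecutive segments, and RNA from every segment was sequenced as a library of its own. The labels number 6 fish, so that each segment had 6 libraries and segments 1 and 4 of a fish came from the same animal, although the study's methods name 5 fish. All fish had eaten a commercial wrasse feed, the gut content had been rinsed out, and the groups differed in the segment only, with no treatment. Each library came from a piece of whole gut wall and held epithelium, muscle, nerves and blood cells together.

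Wrasse have no stomach, and food passes straight into the anterior intestine. In teleosts the anterior intestine takes up most of the fat, sugar and free amino acids, and packs fat into lipoproteins for export. Cells of the posterior intestine are known for taking in whole proteins by endocytosis and breaking them down in large lysosomes. In mammals the distal small intestine is also the place where bile acids and cobalamin (vitamin B12) are reclaimed.

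The libraries of segment 1 held 16492862 to 23760130 reads in gene models (median 18174943) and those of segment 4 held 15698760 to 29650317 (median 21065922). Values below are normalized read counts, in which the reads of each library were scaled for its depth by the authors. They are not corrected for gene length, and so levels are compared between libraries and not between genes. Each difference is a log2 fold change of segment 4 over segment 1 on log2(value + 1) from limma, with its standard error (SE) and a p-value adjusted over all gene models tested. A gene was called higher or lower where this adjusted p was under 0.05.

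Libraries of segment 4 stood apart in 2 ways. The first was the library of fish 2, whose level was placed on a scale from 0% (mean of segment 1) to 100% (mean of segment 4). Both means were taken over the other 5 fish. Level and means were on log2(value + 1), so a place is not a share of the difference in read counts. Over genes called in those 5 fish with a log2 difference above 2, the segment 4 library of fish 2 had a median place of 82.0% for genes higher in segment 4 and of 50.7% for genes lower there. The other segment 4 libraries lay between 98.3% and 105%, and between 104% and 110%. Segment 1 libraries lay between -0.633% and 7.40% and between -3.59% and 7.24%, and the segment 1 library of fish 2 fell within these ranges.

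The second way concerned genes of the egg and germ line. A list of 25 gene models with 12 names, chosen after values were seen, covered the egg coat proteins ZP1 to ZP4 and germ cell genes such as zar1, Figla, GDF9, BMP15 and Ddx4, and its values were summed in each library. In segment 4 the sum was 54630 in fish 1, 7032 in fish 2, 4926 in fish 3, 348.8 in fish 4, 95560 in fish 5 and 322.3 in fish 6. In segment 1 it lay between 136.4 and 259.7. It was thus high in segment 4 of fish 1 and fish 5, intermediate in fish 2 and fish 3, and near the segment 1 level in fish 4 and fish 6. Segments 2 and 3 held 154.1 to 11470, the highest in segment 3 of fish 2. ZP2 (LABE_00031507) held 16553 in segment 4 of fish 1 and 27662 in that of fish 5, against 57.4 and 66.6 in fish 4 and fish 6. Of the 8 listed models that were tested, 6 were called higher in segment 4, against 13.9% of all tested models. Without fish 1 and fish 5, 2 of them were called. As the list was drawn from these same values, these counts are a description and no test.

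**Figure D1:**
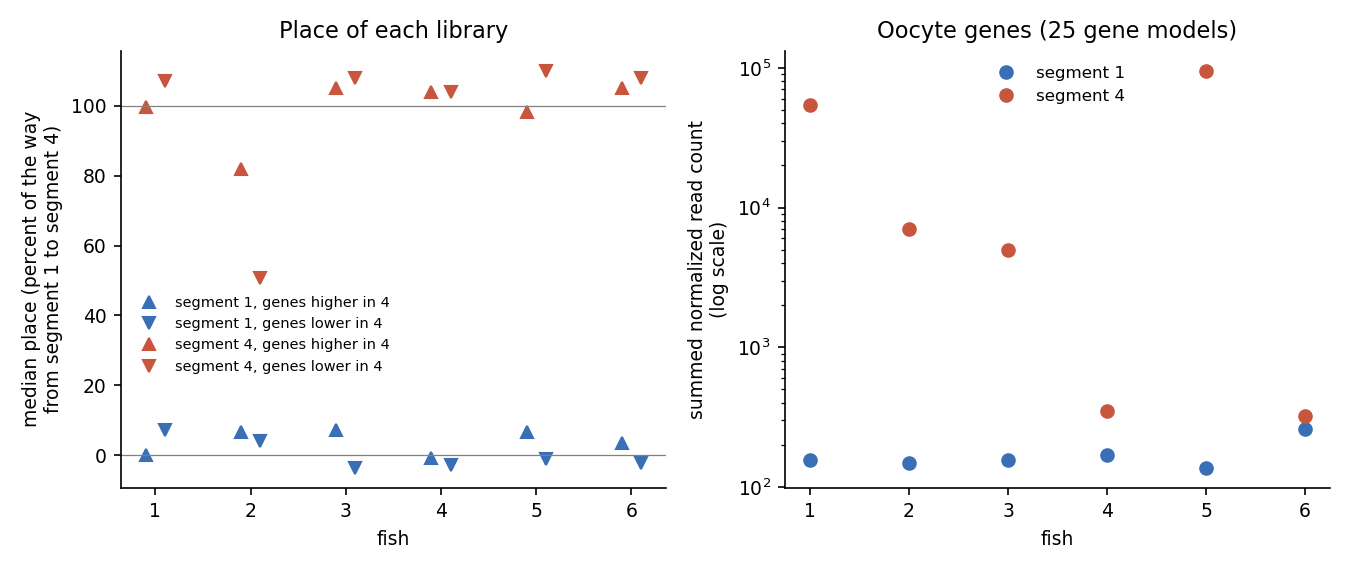
Left, the median place of each segment 1 library (blue) and segment 4 library (red) by fish, in percent of the way from the segment 1 mean to the segment 4 mean of the other 5 fish, for genes higher (triangles up) and lower (triangles down) in segment 4. Places were taken on log2(value + 1). Right, the summed normalized read count of 25 oocyte and germ line gene models in the same libraries on a log scale, with fish 1 at 54630 and fish 5 at 95560 in segment 4.

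Of 18299 gene models, 2552 were called higher in segment 4 (13.9%) and 2552 were called lower (13.9%), together 27.9%. Among those higher, 76 differed over 32-fold, 317 between 4-fold and 32-fold, and 608 between 2-fold and 4-fold, with a median log2 fold change of 0.82. Among those lower, 83 differed over 32-fold, 334 between 4-fold and 32-fold, and 742 between 2-fold and 4-fold, with a median of -0.92. The median over all gene models tested was 0.03. The 6 values of each segment did not overlap for 1181 genes called higher and 1338 called lower, against 13.9% of all tested. Only the segment 4 libraries reached the minimum value for 57 tested models, and only the segment 1 libraries for 22. Such a model could pass the filter only through the segment where it was high, and where one is named its values are given as a description with no test.

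Without fish 2 the counts were 2527 higher and 2560 lower. Without fish 1 and fish 5, an alternative chosen after seeing the data, 1572 were higher and 1771 lower, in libraries of 4 fish. Gene models in which fish 1 and fish 5 both stood over 2 times above each of the other segment 4 libraries made up 3.33% of the genes called higher (85 models), 0.157% of those called lower and 1.38% of all tested. For lists whose counts moved most with these fish, both counts are given below. A fit with each fish as a block called 3280 higher and 3224 lower.

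Segment 1 drew more of its reads from a few genes. Its 10 most abundant gene models took 13.8% of the reads on average (12.1% to 15.2%), and those of segment 4 took 7.50% (6.12% to 8.83%). In bulk tissue, fewer cells of a type and less RNA per cell cannot be told apart, and this applies to every difference below. Gene models that share a name may be close copies that share reads, so differences between such copies are uncertain.

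Gene lists by function differed in their balance of calls. Each count below stands against the 13.9% of all tested gene models that were called in each direction. Pathways of the lysosome, the cell cycle, folate, the ribosome, fat absorption and the citrate cycle were also reported by the study from these libraries. So were peroxisomes, fatty acid degradation, carbohydrate digestion, bile secretion, collecting duct acid secretion and terms of endocytosis. The study also names cubn, amn, lrp2 and mrc1 among its top hind-gut genes. Counts and values of these here are no independent evidence of a direction.

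**Figure D2:**
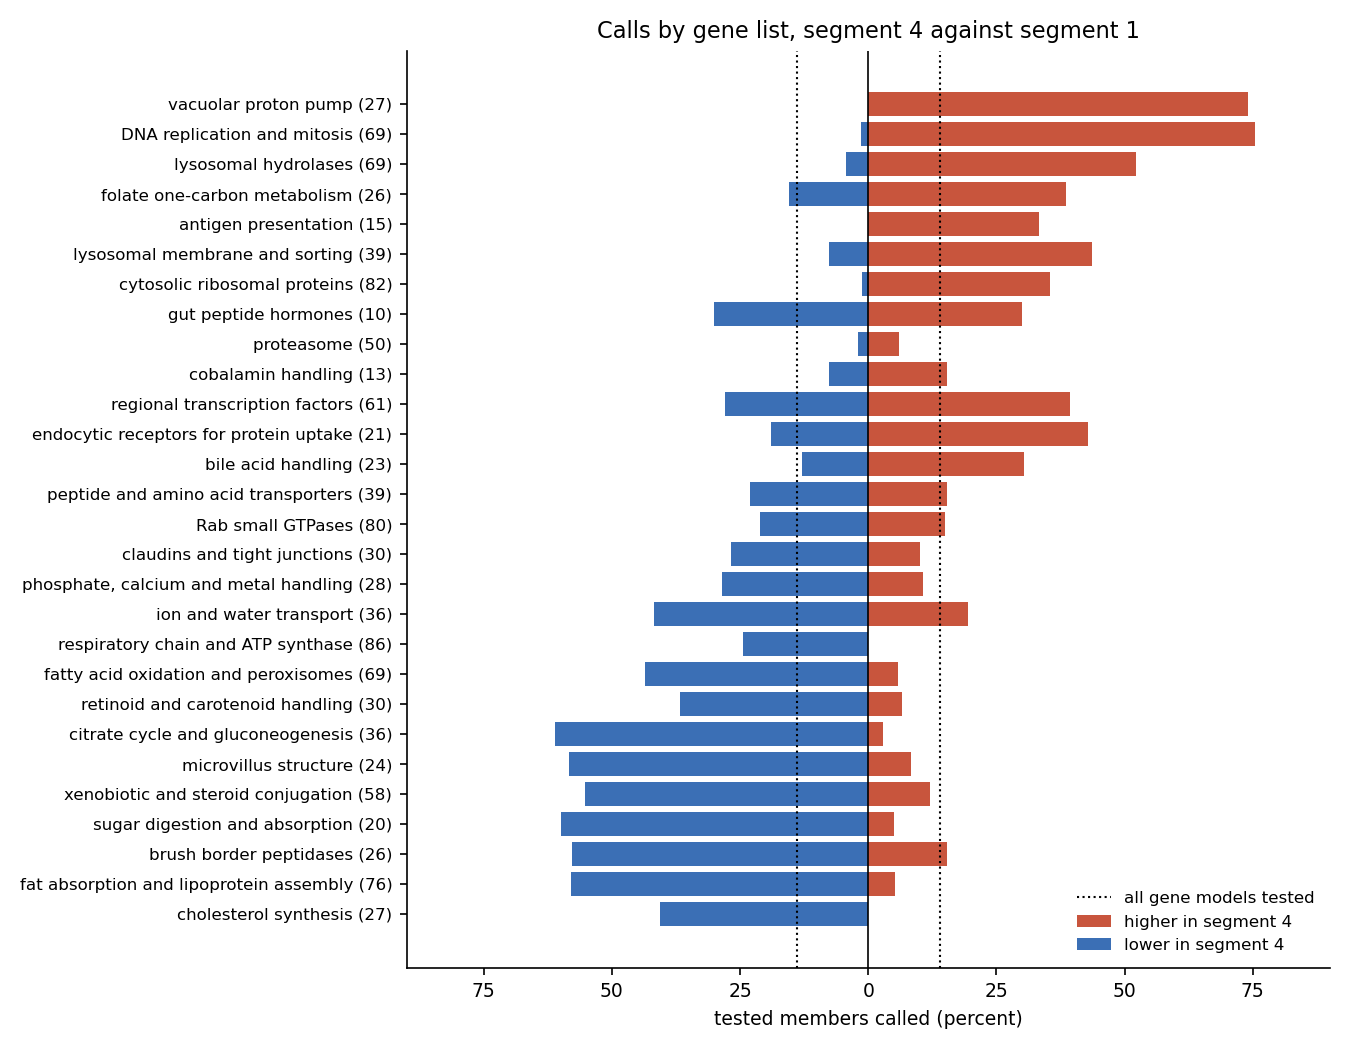
Bars give the percentage of the tested members of each function list (number tested in parentheses) that were called higher (red, right) or lower (blue, left) in segment 4, and dotted lines mark the 13.9% of all tested gene models called in each direction. Proton pump subunits, with 20 of 27 members higher, stand at the top, and the citrate cycle (61.1%) and sugar digestion (60.0%) reach furthest to the left.

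The receptor complex for protein uptake was almost absent from segment 1 and abundant in segment 4. Cubilin (CUBN, LABE_00025543) is a very large receptor that binds proteins and the cobalamin carrier at the cell surface. Its values were 7.61, 21.8 and 42.7 (lowest, median and highest) in segment 1 and 8815, 25085 and 33648 in segment 4. The lowest segment 4 value belonged to fish 2 and was still far above every segment 1 value. The log2 fold change was 9.95 (SE 0.38, limma adjusted p = 8.07e-10), the largest of all named genes that were higher.

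AMN (LABE_00003530) encodes amnionless, the membrane anchor of cubilin. It stood at 15.2, 23.5 and 58.0 in segment 1 and at 1931, 5325 and 6258 in segment 4, a log2 fold change of 7.38 (SE 0.32, adjusted p = 3.47e-09). Lrp2 (LABE_00002019) is megalin, the receptor that carries cubilin and its cargo into the cell. It ran from 10.1 to 72.8 in segment 1 (median 57.0) and from 14715 to 52424 in segment 4 (median 41932), with a log2 fold change of 9.72 (SE 0.43, adjusted p = 3.80e-09). None of these genes overlapped between the segments.

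MRC1 (LABE_00048734), a mannose receptor that binds sugar-decorated proteins, held 41.9, 83.1 and 131 in segment 1 and 17445, 67029 and 76104 in segment 4, a log2 fold change of 9.44 (SE 0.37, adjusted p = 1.20e-09). DAB2 (LABE_00056671) is an adaptor that links megalin to clathrin. It was already well expressed in segment 1, at 1983, 2612 and 3869, and reached 8012, 17767 and 21125 in segment 4, with a log2 fold change of 2.57 (SE 0.22, adjusted p = 2.16e-06). For both genes fish 2 was the lowest in segment 4, and no values overlapped.

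Of the 21 tested members of this list, 9 were higher and 4 lower, against 13.9% each way of all genes, and the median log2 fold change was 0.08. Other copies went the other way. A second LRP2 model (LABE_00036573) was lower at -1.50 and a second MRC1 (LABE_00042762) at -1.35, both named after their values were seen. The count of lower members was 1 without fish 1 and fish 5, 1 without fish 3 or without fish 5, and 2 without fish 1, fish 4 or fish 6.

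Lysosomal hydrolases, the enzymes that break down swallowed material at acid pH, were higher for 36 of 69 tested members and lower for 3, with a median log2 fold change of 0.75. Cathepsin L (LABE_00033481), a cysteine protease that degrades protein, took more reads than any other gene model in segment 4, namely 1.86% of all reads there and 0.00455% in segment 1. Its values were 529, 914 and 1462 in segment 1 and 122180, 348250 and 495610 in segment 4. The log2 fold change was 8.39 (SE 0.33, limma adjusted p = 1.32e-09).

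CTSB (LABE_00042575), cathepsin B, is a related protease. It stood at 81.4, 150 and 156 in segment 1 and at 22518, 68802 and 88297 in segment 4, a log2 fold change of 8.82 (SE 0.30, adjusted p = 2.73e-10). In this gene, as in Cathepsin L, the segments were fully separated and fish 2 was the lowest of segment 4.

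One widely expressed member differed less. PSAP (LABE_00061503), the precursor of the saposins that help to degrade sphingolipids, had medians of 41560 and 108205 and a log2 fold change of 1.33 (SE 0.17, adjusted p = 7.61e-05). The members that were lower were Gaa at -0.81, CTSF at -0.60 and a second PSAP model (LABE_00048554) at -0.48.

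In the list of lysosomal membrane and sorting genes, 17 of 39 were higher and 3 lower (median 0.32). Tfeb (LABE_00017178), a transcription factor that in mammals switches on lysosomal genes, stood at 386, 451 and 576 in segment 1 and at 3268, 8848 and 10946 in segment 4. These values did not overlap, and the log2 fold change of 4.05 (SE 0.24, adjusted p = 9.01e-08) was the largest of the list. LAMP2 (LABE_00038850), a main protein of the lysosomal membrane, had medians of 13799 and 34788 and a log2 fold change of 1.25 (SE 0.18, adjusted p = 0.000148). One Scarb2 model (LABE_00036232), named for the carrier of glucocerebrosidase to the lysosome, fell by 0.60 (SE 0.21, adjusted p = 0.0479) with overlapping values, and it lost this call without fish 3, 4, 5 or 6.

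The vacuolar proton pump, which acidifies lysosomes, moved as a block of many subunits: 20 of 27 tested members were higher and none lower, with a median log2 fold change of 1.03. ATP6V0A2 (LABE_00038613), a subunit of the membrane sector, held 2736, 2933 and 3227 in segment 1 and 4492, 8073 and 9417 in segment 4, a log2 fold change of 1.33 (SE 0.15, adjusted p = 2.21e-05). ATP6V0C (LABE_00023559) of the proton-carrying ring had medians of 8682 and 21358 and a log2 fold change of 1.16 (SE 0.19, adjusted p = 0.000488), with an overlap that came from fish 2. ATP6AP2 (LABE_00049518), an accessory protein, had a log2 fold change of 1.14 (SE 0.18, adjusted p = 0.000342).

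Rab GTPases, which direct vesicle traffic, did not share a direction. Of 80 tested, 12 were higher (15.0%) and 17 lower (21.2%), against 13.9% each way of all genes. The median was -0.03, and without fish 1 and fish 5 the counts were 6 and 10. Rab32 (LABE_00006530), which like Rab38 is known for traffic to lysosome-related organelles, held 1.82 to 7.40 in segment 1 and 990 to 2898 in segment 4, and reached the minimum value only there. Rab38 (LABE_00049382) was higher by 4.33, while rab13 (LABE_00022742), a Rab of tight junctions, was lower at -2.92. Rab38 and rab13 were named after their values were seen.

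Bile acid uptake followed in the same direction. Fabp6 (LABE_00051334) is the ileal bile acid binding protein, which carries bile acids through the enterocyte. It held 72.3, 292 and 487 in segment 1 and 109360, 142740 and 207280 in segment 4, and its share of reads went from 0.00124% to 0.855%. The log2 fold change was 9.36 (SE 0.39, adjusted p = 2.00e-09). SLC10A2 (LABE_00014762), the apical sodium and bile acid transporter, held 31.7, 43.5 and 52.4 against 10923, 15533 and 25100, a log2 fold change of 8.52 (SE 0.20, adjusted p = 9.43e-12). Fish 2 was not the lowest of segment 4 in these genes, at 204750 for Fabp6 and 19964 for SLC10A2, and nothing overlapped.

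The basolateral exporter of bile acids has 2 subunits. The beta subunit slc51b (LABE_00049906) had medians of 4446 and 10225 and a log2 fold change of 1.28 (SE 0.23, adjusted p = 0.00105). The alpha subunit slc51a (LABE_00015135) had medians of 265 and 2466 and a log2 fold change of 3.12 (SE 0.26, adjusted p = 1.90e-06), and SLC10A1 (LABE_00006912), named for the bile acid transporter that in mammals sits on liver cells, had medians of 161 and 2396 and a log2 fold change of 3.89 (SE 0.52, adjusted p = 9.13e-05). These last genes were picked after their values were seen.

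CYP7A1 (LABE_00000787), the rate-limiting enzyme of bile acid synthesis, went against these transporters. In segment 1 it held 5539, 8996 and 39084, and in segment 4 it held 6.62, 34.4 and 911, the last in fish 2. The segments did not overlap, and the log2 fold change was -8.05 (SE 0.93, adjusted p = 2.66e-05), and -8.94 without fish 2. ABCB11 (LABE_00036579), named for the bile salt export pump, also went against them, at 564 to 3761 in segment 1 and 0.627 to 5.68 in segment 4. It reached the minimum value only in segment 1. Over the whole bile acid list, 7 of 23 tested members were higher and 3 lower, with a median of 0.04. With each fish as a block the list had 9 higher and 6 lower. Liver markers, the tissue where mammals make CYP7A1, summed to 216.1 to 323.2 in segment 1 and 183.2 to 320.7 in segment 4. Of 6 tested markers 1 was lower (16.7%, near the 13.9% of all genes) and none higher.

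**Figure D3:**
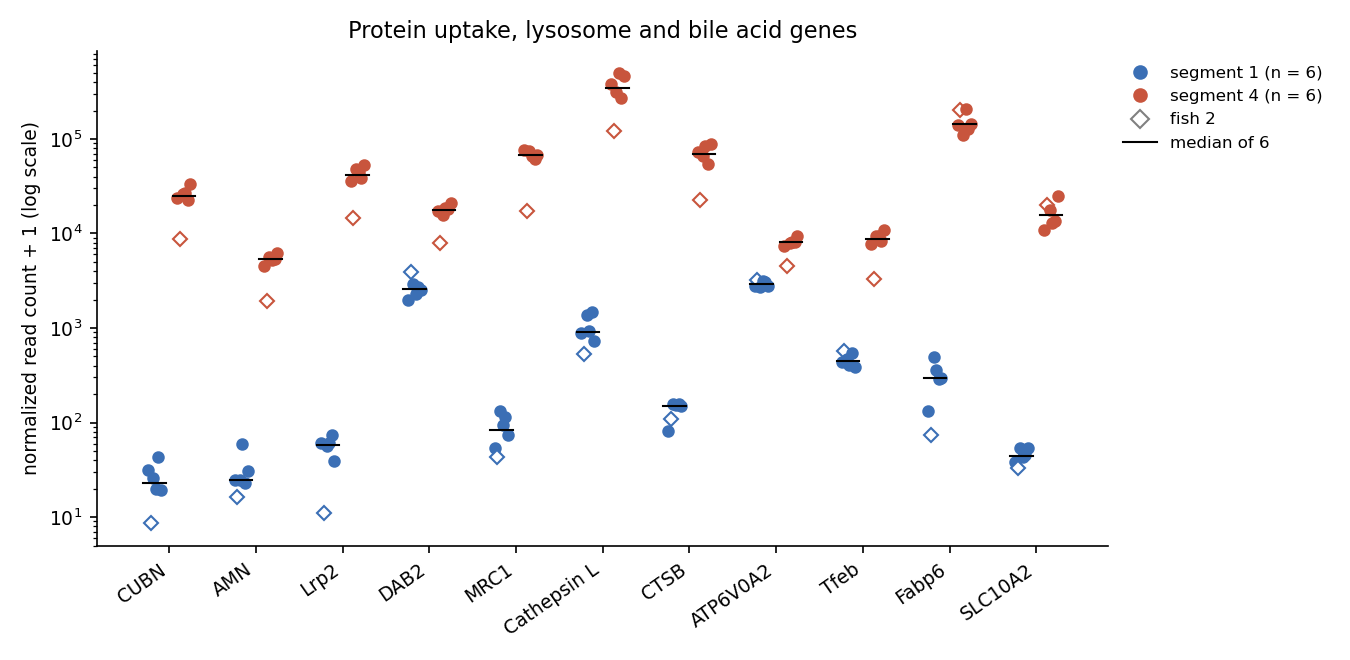
Normalized read counts plus 1 on a log scale for genes of protein uptake, the lysosome and bile acid transport in each of the 6 libraries of segment 1 (blue) and segment 4 (red), with diamonds for fish 2 and bars at the median. CUBN runs from 7.61 to 42.7 in segment 1 and from 8815 to 33648 in segment 4, and fish 2 is the lowest red point except in Fabp6 and SLC10A2.

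Transcription factors that lay out the gut from front to back split between the segments. Of 61 tested, 24 were higher in segment 4 and 17 lower (median 0.11). Of the 21 tested Hox models, whose products set position along the body axis, 15 were higher, 2 lower and 4 did not pass. Of all genes tested, 13.9% were called in each direction. hoxa10 (LABE_00032182) was listed at 0 to 3.48 in segment 1 (median 1.29) and at 851 to 1124 in segment 4 (median 1014). It reached the minimum value only in segment 4, as did hoxa13a (LABE_00032184). Hox models of this kind are among those counted as higher and could not have come out lower. The Hox models that were lower were hoxb3a and hoxb4a, both at -1.30.

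Among the members that were lower was gata6-a (LABE_00019064), a GATA factor of gut endoderm. It held 6522, 8280 and 10449 in segment 1 and 1332, 1555 and 2861 in segment 4, a log2 fold change of -2.31 (SE 0.18, adjusted p = 8.55e-07). gata4 (LABE_00042570), which in mammals is confined to the proximal intestine, held 600, 685 and 785 against 0, 7.76 and 25.1, and was picked after its values were seen. hnf4a (LABE_00047716), a regulator of enterocyte genes, had medians of 7643 and 3322 without overlap and a log2 fold change of -1.21 (SE 0.17, adjusted p = 0.000122).

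CDX1, a homeobox factor of the intestine, had models of both directions. LABE_00038637 was higher, with medians of 2021 and 6631 and a log2 fold change of 1.48 (SE 0.21, adjusted p = 0.000167). LABE_00045324 was lower, with medians of 4575 and 2359 and a log2 fold change of -0.83 (SE 0.16, adjusted p = 0.00179).

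Several of the most abundant transcripts of segment 1 were lower in segment 4. A type-4 ice-structuring protein, LS-12 (LABE_00017890), took 3.60% of segment 1 reads and 0.0873% of segment 4 reads. It held 580340, 778375 and 984650 in segment 1 and 731, 1292 and 86191 in segment 4, where the highest value was that of fish 2 and the other 5 reached 1541 at most. The log2 fold change was -8.42 (SE 0.93, limma adjusted p = 1.90e-05), and -9.40 without fish 2. SIDT2 (LABE_00036988), named for a lysosomal membrane protein linked to nucleic acid transport, took 1.86% and 0.0734% of reads, with values of 339370, 409275 and 480010 against 2388, 3488 and 61896 and a log2 fold change of -6.29 (SE 0.63, adjusted p = 8.88e-06), or -7.03 without fish 2.

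OVCH2 (LABE_00007043), a secreted ovochymase-like protease, held 21754, 46128 and 55881 in segment 1 and 15.1, 46.6 and 69.0 in segment 4, a log2 fold change of -9.89 (SE 0.35, adjusted p = 3.52e-10). ZAN (LABE_00016447), a model named for zonadhesin, held 9996, 13198 and 19313 against 12.5, 39.7 and 115, with -8.43 (SE 0.38, adjusted p = 5.07e-09). Natterin-3 (LABE_00068119), named for a fish venom toxin, had medians of 29294 and 33.6, and fish 2 stood at 4719 in segment 4 where the other libraries held 18.9 to 46.4, so that its log2 fold change was -8.75 with and -10.11 without fish 2. For none of these genes did the segments overlap.

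CUZD1 (LABE_00026701), a secreted protein with CUB and zona pellucida domains, was among the 10 most abundant genes of segment 1 but varied widely, at 26894, 126650 and 209330 there and at 4709, 25370 and 48492 in segment 4. It was lower in all 6 fish with a log2 fold change of -2.47 (SE 0.58, adjusted p = 0.00585), and without fish 1 and fish 5 it stood at -2.19 (adjusted p = 0.0876) and lost its call. Its level in the middle of the gut was below both ends, with means of 3934 in segment 2 and 1013 in segment 3.

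Fat absorption and lipoprotein assembly was lower in segment 4 for 44 of 76 tested members and higher for 4, with a median log2 fold change of -1.17. The apolipoprotein E model apoeb (LABE_00047834), a lipid-carrying protein, held 101270, 140485 and 198570 in segment 1 and 14023, 21586 and 34927 in segment 4, a log2 fold change of -2.67 (SE 0.23, adjusted p = 2.24e-06). A neighbouring apoeb model (LABE_00047833) differed more, from a median of 138100 to one of 2506 with fish 2 at 36890, a log2 fold change of -5.34 (SE 0.69, adjusted p = 7.18e-05), or -6.08 without fish 2. APOA1 (LABE_00047835), the main protein of high density lipoprotein, held 51505, 61038 and 96448 against 3638, 7800 and 20909, with -3.08 (SE 0.35, adjusted p = 2.63e-05). Fish 2 was the highest of segment 4 in all of these, and the segments did not overlap.

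Among members named after their values were seen, CD36, a fatty acid receptor, was lower at -5.89, Npc1l1, the cholesterol importer, at -4.36, MTTP, which loads fat onto apolipoprotein B, at -2.18, and PLIN2, a lipid droplet coat, at -4.41. The members that were higher were 1 of the models named PLB1 at 7.14, SEC24C at 1.30, SLC27A2 at 1.29 and ACSL1 (LABE_00061939) at 0.64.

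Cholesterol synthesis was lower for 11 of 27 tested members and higher for none, and its median of -1.57 was the lowest among function lists. Sc5d (LABE_00057134), which introduces a double bond into the sterol ring, held 2834, 5229 and 13030 in segment 1 and 380, 434 and 3161 in segment 4, with fish 2 giving the only overlap, and a log2 fold change of -3.17 (SE 0.52, adjusted p = 0.000449). dhcr7 (LABE_00056726), which makes the last step to cholesterol, had medians of 4628 and 517 and a log2 fold change of -3.16 (SE 0.46, adjusted p = 0.000191). The count of lower members depended on the test, at 21 by edgeR and 23 by DESeq2.

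Sugar digestion and absorption was lower for 12 of 20 tested members and higher for SLC2A1 (LABE_00010096), a glucose carrier found in most cells, at 1.06. LCT (LABE_00037610), named for the brush border lactase and phlorizin hydrolase, held 7522, 11950 and 20875 in segment 1 and 33.1, 138 and 5416 in segment 4. Fish 2 gave the highest of these, and the other 5 reached 166 at most. The log2 fold change was -6.00 (SE 0.91, adjusted p = 0.000251), and -7.00 without fish 2.

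MGAM (LABE_00035077), maltase-glucoamylase, which splits starch fragments, had medians of 32998 and 2604 and a log2 fold change of -3.32 (SE 0.41, adjusted p = 5.30e-05). SLC5A1 (LABE_00008799), the sodium-driven glucose importer, held 19828, 21454 and 23427 against 4809, 7135 and 9123, with -1.61 (SE 0.14, adjusted p = 2.32e-06). No value overlapped between the segments in this group.

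Retinoid and carotenoid handling was lower for 11 of 30 tested members (36.7%) and higher for 2 (6.67%), against 13.9% each way of all genes. The median was -0.53, and 1 member was higher without fish 1 and fish 5. BCO1 (LABE_00031873), which cleaves carotenoids to vitamin A aldehyde, held 10019, 29135 and 57129 in segment 1 and 566, 695 and 6762 in segment 4, a log2 fold change of -4.54 (SE 0.58, adjusted p = 6.78e-05). RBP2 (LABE_00022202), which carries retinol inside enterocytes, held 11657, 13198 and 14967 against 127, 510 and 6619, with -4.59 (SE 0.72, adjusted p = 0.000333). The highest segment 4 value of both was that of fish 2, without which both stood at -5.34. Bco2 (LABE_00037806), the related enzyme that cleaves carotenoids off centre, went the other way at 3.04, and was named after its value was seen.

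Brush border peptidases, which trim peptides at the cell surface, were lower for 15 of 26 and higher for 4 (median -0.85). Enpep (LABE_00030971), which removes acidic residues from peptide ends, went against most of the list, at 7203, 15073 and 20329 in segment 1 against 23937, 29066 and 32766, with a log2 fold change of 1.07 (SE 0.21, adjusted p = 0.00191). Its values did not overlap between the segments.

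The transporters for peptides and amino acids had 6 of 39 members higher (15.4%) and 9 lower (23.1%), against 13.9% each way of all genes, with a median of 0.01. The peptide importer SLC15A1 had a model lower at -5.59 (LABE_00037938) and another higher at 6.52 (LABE_00049604), the latter named after its value was seen. The study reports both paralogs of this gene as more abundant in the most anterior segment than in the hind-gut. That direction was seen here for LABE_00037938 and not for LABE_00049604. Whether LABE_00049604 is one of the study's paralogs was not tested. The higher count was 2 without fish 5 and the lower count 5 without fish 3. Without fish 1 and fish 5 the counts were 3 and 5.

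**Figure D4:**
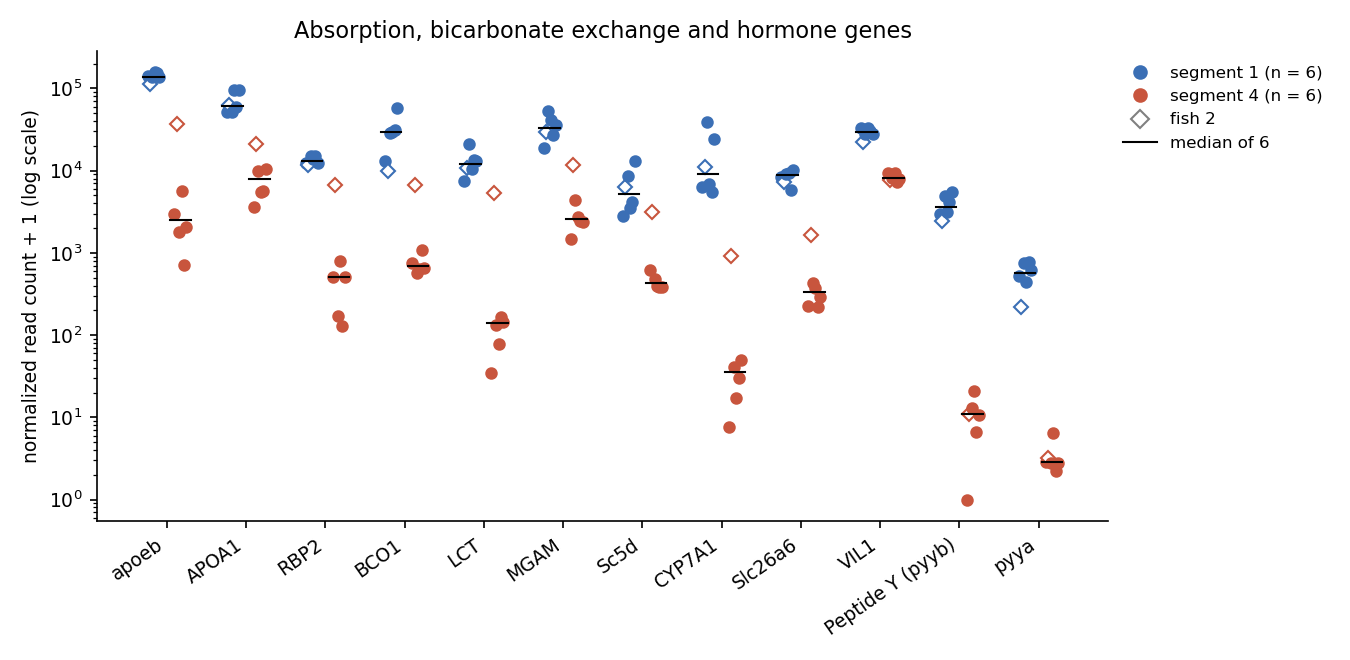
Normalized read counts plus 1 on a log scale for genes of fat, retinoid and sugar absorption, sterol and bile acid synthesis, bicarbonate exchange, the microvillus and gut hormones in each library of segment 1 (blue) and segment 4 (red), with diamonds for fish 2 and bars at the median of 6. Fish 2 is the highest red point from apoeb (36890, LABE_00047833) to Slc26a6 (1627), and lies among the others for VIL1 (7726) and pyya (2.23).

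In ion and water transport, 15 of 36 tested members were lower and 7 higher (median -0.23). Slc26a6 (LABE_00040824), an apical chloride and bicarbonate exchanger known in marine fish for its part in water uptake, held 5782, 8766 and 10110 in segment 1 and 218, 333 and 1627 in segment 4, a log2 fold change of -4.38 (SE 0.40, adjusted p = 3.57e-06). Slc12a1 (LABE_00030851), a sodium, potassium and chloride cotransporter, had medians of 56964 and 32794 with overlap and a log2 fold change of -0.79 (SE 0.20, adjusted p = 0.00999). It lost this call under quantile normalization.

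The hormone guanylin, GUCA2A (LABE_00009500), acts on GUCY2C, a receptor that triggers chloride secretion. It had medians of 2005 and 53.7 and a log2 fold change of -4.74 (SE 0.52, adjusted p = 1.83e-05), and all 3 of the GUCY2C models that were called were lower, between -2.05 and -1.54. AQP1 (LABE_00056950), a water channel, was higher, at 0, 22.7 and 54.3 against 226, 472 and 814, with a log2 fold change of 5.03 (SE 0.77, adjusted p = 0.000263), or 4.23 without fish 4. These genes were picked after their values were seen.

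Phosphate, calcium and metal handling had 8 of 28 members lower (28.6%) and 3 higher (10.7%), against 13.9% each way of all genes. The median was -0.17. ALPI (LABE_00031612), an intestinal alkaline phosphatase, had medians of 9572 and 1227 without overlap and a log2 fold change of -2.91 (SE 0.28, adjusted p = 6.20e-06). The higher members were the copper pumps ATP7A at 1.57 and ATP7B at 1.47 and the phosphate carrier slc20a1a at 1.38.

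Enzymes that oxidize foreign compounds and steroids or conjugate them were lower for 32 of 58 tested members and higher for 7 (median -0.70). With each fish as a block 37 were lower and 11 higher, and without fish 1 and fish 5 the counts were 28 and 4. Among those lower, models of the Cyp2j family of cytochromes P450 were the most numerous, down to -6.60 for Cyp2j6 (LABE_00054170). They have close copies in this genome, and a set of them may share reads. CYP1B1 (LABE_00008940), a P450 of another family, was higher at 2.99. These models were named after their values were seen.

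Mitochondrial genes were lower by smaller steps. In the citrate cycle and gluconeogenesis 22 of 36 members were lower and 1 higher (median -0.54). PCK1 (LABE_00025597), the entry enzyme of gluconeogenesis, held 6981, 11076 and 12337 in segment 1 and 1542, 2601 and 3455 in segment 4, a log2 fold change of -2.05 (SE 0.19, adjusted p = 3.64e-06). Fatty acid oxidation and peroxisomes had 30 of 69 members lower and 4 higher (median -0.36), and 19 lower without fish 1 and fish 5. CPT1A (LABE_00002601), which brings fatty acids into mitochondria, held 6497, 7448 and 7867 against 3756, 4490 and 4642, with -0.76 (SE 0.08, adjusted p = 1.73e-05).

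The respiratory chain and ATP synthase had 21 of 86 members lower and none higher (median -0.23), but 8 without fish 3, 11 without fish 5, 13 without fish 6 and 7 without fish 1 and fish 5, and 24 without fish 2 and 31 with each fish as a block. atp5b (LABE_00037996), the catalytic subunit of the ATP synthase, overlapped between the segments, with a log2 fold change of -0.34 (SE 0.12, adjusted p = 0.0486). It lost its call under 13 of the alternatives, among them leaving out each fish but fish 2.

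Folate one-carbon metabolism, which passes single carbon units to nucleotides and amino acids, had members in both directions. Of 26 tested members, 10 were higher and 4 lower (median 0.49), but 4 were higher and 6 lower without fish 1 and fish 5. The mitochondrial SHMT2 (LABE_00021938), which turns serine into glycine, held 11204, 15124 and 18455 in segment 1 and 2665, 2918 and 3506 in segment 4, a log2 fold change of -2.32 (SE 0.13, adjusted p = 3.17e-08). Amt (LABE_00040812) and GCSH (LABE_00006063), parts of the mitochondrial glycine cleavage system, were lower too. Amt had medians of 16450 and 1189 and a log2 fold change of -3.54 (SE 0.21, adjusted p = 9.60e-08), and GCSH had medians of 11987 and 274 and -5.31 (SE 0.39, adjusted p = 6.06e-07).

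The cytosolic aldh1l1 (LABE_00027308), which oxidizes formyl folate, was higher, at 2343, 6695 and 8511 against 15719, 22309 and 31984, with a log2 fold change of 2.01 (SE 0.28, adjusted p = 0.000119). Mthfd1 (LABE_00008887), the cytosolic enzyme that interconverts folate forms, had medians of 6445 and 10854 with overlap and a log2 fold change of 0.73 (SE 0.18, adjusted p = 0.00836). Without fish 1 and fish 5 it stood at 0.52 (adjusted p = 0.153) and lost its call.

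Cobalamin handling had 2 of 13 members higher and 1 lower (median 0.15), near the share among all genes, with 4 higher without fish 2 and 1 without fish 1 and fish 5. TCN2 (LABE_00059456), named for the carrier transcobalamin, held 708, 961 and 1176 in segment 1 and 1806, 3659 and 4879 in segment 4, a log2 fold change of 1.83 (SE 0.22, adjusted p = 4.12e-05). The model that the study calls tcn2 (LABE_00042844) carries the name Vtcn1 in the deposited table, and it went the other way, at 1447, 1980 and 2672 against 44.5, 97.0 and 512, with a log2 fold change of -4.14 (SE 0.47, adjusted p = 2.39e-05). Neither overlapped between the segments. The study describes tcn2 as enriched in the hind-gut, a direction seen here for LABE_00059456 and not for LABE_00042844.

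Gut hormones differed gene by gene, with 3 of 10 tested models higher and 3 lower (30.0% each way, against 13.9% of all genes). The lower count includes pyya and a cholecystokinin model (LABE_00034484), which reached the minimum value only in segment 1. They could not have come out higher, so this count is a description. Both peptide YY genes, hormones that slow feeding and gut movement, were nearly absent from segment 4. pyya (LABE_00046718) held 216, 573 and 779 in segment 1 and 1.25, 1.84 and 5.46 in segment 4, the latter a few reads a library. The model named Peptide Y, pyyb in the study (LABE_00049925), held 2420, 3643 and 5452 against 0, 9.83 and 20.0, with -8.90 (SE 0.58, adjusted p = 1.67e-07).

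Cholecystokinin, which releases bile and pancreatic juice, has 2 models. The model known as cckb (LABE_00034484) held 41.8, 144 and 189 in segment 1 and 0, 0.314 and 0.946 in segment 4, which is at most 1 read a library. Like pyya it reached the minimum value only in segment 1. ccka (LABE_00001570) held 419, 586 and 740 against 247, 646 and 964, with a log2 fold change of -0.03 (SE 0.27, adjusted p = 0.955). The fold of ccka changed sign under 9 of the alternatives. Motilin, in the study's naming of the model LABE_00007846, held 825, 1017 and 1100 in segment 1 and 67.7, 129 and 404 in segment 4, a log2 fold change of -2.73 (SE 0.33, adjusted p = 4.50e-05).

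A relaxin-3 model, Rln3 (LABE_00052570), went the other way at 23.2, 39.7 and 66.6 against 1144, 2513 and 4155, with a log2 fold change of 5.86 (SE 0.31, adjusted p = 2.15e-08). VIP (LABE_00053410), a peptide of gut neurons, had medians of 195 and 315 with overlap, and a log2 fold change of 0.70 (SE 0.21, adjusted p = 0.0238) that lost its call without fish 3, fish 5 or fish 6. Markers of enteroendocrine cells, the cells that make most of these hormones, were lower for 3 of 7 tested members (42.9%, against 13.9% of all genes) and higher for none. They summed to 1585 to 1898 in segment 1 and 751.4 to 1452 in segment 4. Their part in the hormone results was not tested.

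Structure of the microvilli was lower for 14 of 24 tested members (median -0.67). VIL1 (LABE_00003386), villin, which bundles their actin core, held 22115, 29182 and 33437 in segment 1 and 7355, 8054 and 9418 in segment 4, a log2 fold change of -1.80 (SE 0.12, adjusted p = 1.69e-07). CDHR2 (LABE_00043177), a cadherin that links microvillus tips, had medians of 56892 and 39084 with overlap and a log2 fold change of -0.59 (SE 0.15, adjusted p = 0.0102). It lost its call under quantile normalization.

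TMIGD1 (LABE_00053039), an adhesion molecule of the microvillus base, was an exception at 88.8, 143 and 296 against 30161, 39146 and 45248, a log2 fold change of 8.02 (SE 0.24, adjusted p = 9.85e-11). It was higher in all 6 fish, and fish 2 stood at 34995, among the other segment 4 libraries. Calml4, a light chain of brush border myosin, was the other member that was higher, for 1 of its models at 2.82.

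Claudins and tight junction genes had 3 of 30 members higher and 8 lower (median -0.13), and 1 higher and 5 lower without fish 1 and fish 5. Cldn4 (LABE_00019610), a sealing claudin, held 1880, 2135 and 3335 in segment 1 and 3383, 3908 and 5680 in segment 4, a log2 fold change of 0.87 (SE 0.17, adjusted p = 0.00148). Cldn15 (LABE_00040148), which forms sodium pores, was lower at -7.68 and was named after its value was seen.

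Antigen presentation was higher for 5 of 15 tested members and lower for none (median 0.33). IFI30 (LABE_00037054), a thiol reductase of the lysosome that prepares antigens, held 2926, 3327 and 3566 in segment 1 and 8302, 9954 and 11598 in segment 4, a log2 fold change of 1.59 (SE 0.10, adjusted p = 2.01e-07). Cd74 (LABE_00038649), the invariant chain of class II molecules, had medians of 62301 and 78501 and a log2 fold change of 0.37 (SE 0.12, adjusted p = 0.0376), which did not pass without fish 1, 3, 4, 5 or 6. CTSS (LABE_00017884), a protease that cuts this chain, reached 3908 in fish 1 and 5802 in fish 5 of segment 4, where the remaining 4 fish held 456 to 849, and had a log2 fold change of 2.25 (SE 0.56, adjusted p = 0.00818). Without fish 1 and fish 5 it stood at 1.29 (adjusted p = 0.00521).

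Markers of B and plasma cells were higher for 4 of 11 (36.4%) and lower for 1 (9.09%), against 13.9% each way of all genes. IGHM (LABE_00073002), the heavy chain of immunoglobulin M, held 14.5, 51.8 and 70.0 in segment 1 and 223, 627 and 811 in segment 4, a log2 fold change of 3.52 (SE 0.42, adjusted p = 3.38e-05). pax5 (LABE_00039509), the factor that keeps B cell identity, was listed at 0 to 4.15 in segment 1 and at 42.3 to 90.7 in segment 4. It reached the minimum value only in segment 4, so it is counted as higher but could not have come out lower. The lower member was the more abundant XBP1 (LABE_00021564), with means of 9782 in segment 1 and 6785 in segment 4. Its log2 fold change was -0.53 (SE 0.08, adjusted p = 0.000348). The whole list summed to 15330 to 27040 in segment 1 and 16240 to 63420 in segment 4, and these ranges overlapped.

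Other blood cell markers had fewer calls. Of T cell markers, 1 of 7 was higher (14.3%, near the 13.9% of all genes), CD28, at 0.70, and none without fish 1 and fish 5. Of macrophage markers 3 of 9 were higher (33.3%). C1QC (LABE_00051407), a complement subunit made by macrophages, had medians of 8898 and 12044 with overlap and a log2 fold change of 0.47 (SE 0.14, adjusted p = 0.0270). It lost this call without fish 1, 3, 4 or 6. Macrophage markers summed to 14550 to 21130 in segment 1 and to 19240 to 33450 in segment 4, and 1 member was called without fish 3 or without fish 6, and 5 with each fish as a block. Neither the 5 neutrophil markers nor the 4 red cell markers had a call, and with each fish as a block 3 of the neutrophil markers were higher. EPX (LABE_00008768), a peroxidase of granulocytes, was among the 10 most abundant genes of segment 4, at 10676, 37972 and 76621 against 61213, 96864 and 139520, with a log2 fold change of 1.71 (SE 0.46, adjusted p = 0.0134) that lost its call without fish 3 and without fish 1 and fish 5.

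Marker lists of other cell types of the gut wall had calls in the same bulk samples. Of all genes tested, 13.9% were called in each direction. Enterocyte markers were lower for 12 of 18 and higher for none, with sums of 635200 to 1095000 in segment 1 and 139600 to 346600 in segment 4, the highest of the latter in fish 2. Several of these markers also belong to the fat, peptidase and microvillus lists above. Goblet cell markers were lower for 4 of 5. Muc2 (LABE_00005597), the gel-forming mucin, held 2398, 3977 and 6364 in segment 1 and 862, 1238 and 2064 in segment 4, a log2 fold change of -1.62 (SE 0.25, adjusted p = 0.000296). ATOH1 (LABE_00027155), the factor that sets the secretory fate, held 272, 299 and 327 against 79.0, 111 and 132, with -1.49 (SE 0.15, adjusted p = 6.88e-06).

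Smooth muscle markers were higher for 3 of 10 tested members (30.0%, against 13.9% of all genes). Their sums were 23000 to 32140 in segment 1 and 30670 to 41730 in segment 4. SMTN (LABE_00048565), smoothelin of contractile muscle, held 234, 401 and 525 against 615, 786 and 913, a log2 fold change of 1.02 (SE 0.18, adjusted p = 0.000881). Markers of enteric neurons and glia were lower for 3 of 10 and higher for 1, with sums of 1103 to 1567 and 1124 to 1315, and the lower count was 1 without fish 1, without fish 6 or without fish 1 and fish 5. Exocrine pancreas markers, digestive enzymes of a tissue that in many fish lies scattered along the gut, had no call among 10 tested, and summed to 309.9 to 152800 in segment 1 and 534.6 to 211700 in segment 4. The part of cell type differences in the gene results was not tested.

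Genes of DNA replication and mitosis were higher for 52 of 69 tested members and lower for 1, with a median log2 fold change of 0.79. The count fell to 32 without fish 5 and to 22 without fish 1 and fish 5, where the median was 0.66. With each fish as a block and without fish 1 and fish 5 it was 45. MKI67 (LABE_00049929), a protein of dividing cells, held 1177, 1872 and 2397 in segment 1 and 2050, 2798 and 3129 in segment 4. It overlapped, was higher in all 6 fish and had a log2 fold change of 0.63 (SE 0.16, adjusted p = 0.00921).

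In 3 of the members named, fish 1 and fish 5 stood out in segment 4. ccnb1 (LABE_00020522), the cyclin of entry into mitosis, held 422, 645 and 855 in segment 1, and in segment 4 it held 7215 in fish 1 and 13296 in fish 5 while the remaining 4 fish held 1084 to 1463. Its log2 fold change was 2.08 (SE 0.56, adjusted p = 0.0138), and 1.14 (adjusted p = 0.00376) without fish 1 and fish 5. CCNA2 (LABE_00053117), the cyclin of DNA replication, had 6802 and 14087 in these fish and 867 to 1268 in the rest, with a log2 fold change of 2.15 (SE 0.62, adjusted p = 0.0195), and 1.20 without them (adjusted p = 0.0107). rrm2 (LABE_00069748), which makes DNA building blocks, had 4831 and 7274 in these fish and 1161 to 1573 in the rest, and went from 1.61 (SE 0.42, adjusted p = 0.0112) to 0.90 (adjusted p = 0.00311). These are the same 2 libraries in which the sums of egg and germ line genes were highest. The differences were still called without them, at a smaller size. Fish 2 and fish 3, which stayed in that fit, had segment 4 sums of 7032 and 4926, against at most 259.7 in segment 1. Leaving out fish 1 and fish 5 therefore did not remove the egg and germ line genes, and their part in these differences was not tested.

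Cytosolic ribosomal proteins were higher for 29 of 82 members and lower for 1 (median 0.29). This count was unsteady, at 46 with each fish as a block, 12 without fish 5, 15 without fish 6, 16 without fish 4 and 12 without fish 1 and fish 5. Rpl3 (LABE_00052464), a protein of the large subunit, had medians of 19932 and 29574 with overlap and a log2 fold change of 0.51 (SE 0.13, adjusted p = 0.00897). Proteasome genes had 3 of 50 members higher and 1 lower, below the 13.9% of all genes, 14 higher with each fish as a block and none without fish 1 and fish 5.

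Genes to which the study gives a gene model were also looked up. P2rx5 (LABE_00047336), an ATP-gated channel, held 4.64, 10.4 and 17.6 in segment 1 and 1418, 4862 and 6391 in segment 4, a log2 fold change of 8.55 (SE 0.37, adjusted p = 3.14e-09). SH3TC1 (LABE_00070741) was listed at 0 to 7.25 against 218 to 758, and tmem236 (LABE_00018946), a membrane protein named by its size of change, at 0 to 7.28 against 867 to 3456. In all of these fish 2 was the lowest of segment 4. SH3TC1 and tmem236 reached the minimum value only in segment 4, and P2rx5 did not overlap between the segments.

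On the other side, rhbg (LABE_00033114), an ammonia channel, held 1948, 18184 and 26989 in segment 1 and 11.4, 31.0 and 92.4 in segment 4, a log2 fold change of -8.43 (SE 0.61, adjusted p = 5.10e-07). SLC25A22 (LABE_00065259), a mitochondrial glutamate carrier, had medians of 2621 and 55.4, etnppl (LABE_00009863), which breaks down phosphoethanolamine, 5650 and 106, and DGKA (LABE_00033129), a diacylglycerol kinase, 1089 and 24.8. All of these were lower in all 6 fish without overlap. tshr (LABE_00068071), named for the thyrotropin receptor, was low in both, at 38.1 to 303 against 0 to 6.13. It reached the minimum value only in segment 1.

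Where the change took place along the gut differed between lists. For each called gene, the mean log2(value + 1) of segment 2 and of segment 3 was placed between those of segment 1 (0%) and segment 4 (100%). This is a description with no test, and a place on this log scale is not a share of the difference in read counts. These means include fish 2. Over the 2552 genes higher in segment 4 the median place was 25.3% in segment 2 and 54.7% in segment 3, and over those lower it was 18.3% and 48.9%. Most protein uptake and lysosome genes lay closer to segment 1 than to segment 4 in segment 3. The median place in segment 3 was 2.09% for the 9 endocytic receptors that were higher, 9.16% for 36 lysosomal hydrolases, 18.0% for 17 lysosomal membrane and sorting genes and -5.0% for 20 proton pump subunits. Past the midpoint were 1 of the receptors, 4 of the hydrolases, 2 of the membrane and sorting genes and 1 of the pump subunits. CUBN had means of 31.2 in segment 2 and 22.5 in segment 3.

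Regional transcription factors that were higher were already at 74.5% in segment 3, and ribosomal proteins at 65.9%. The bile acid genes were also high by segment 3, where Fabp6 had a mean of 135535 ± 77307 (SD, n = 6) and SLC10A2 one of 11328 ± 8742, with a wide spread between fish. In segment 2 the means were 11887 ± 28485 for Fabp6 and 1020 ± 2330 for SLC10A2, with SDs above the means. SDs this far above a mean of 6 values arise only where a single library holds most of the total. OVCH2 had such a spread in segment 3, at 1491 ± 3589, so that these means were very uneven between fish. TMIGD1 held 16894 ± 9551 in segment 3. Among the genes that were lower, those of fat absorption lay at 20.4% in segment 3, retinoid genes at 8.41% and sugar genes at 32.5%. By these medians most of the fall on the log scale lay between segments 3 and 4. In read counts this differed by gene. Means in segments 1, 3 and 4 were 144162, 60588 and 23331 for apoeb (LABE_00047834), and 13407, 10504 and 1453 for RBP2. Microvillus genes lay at 60.0% and citrate cycle genes at 66.1%. The respiratory chain was at 126% in segment 3, a level below that of segment 4.

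The places were also taken without fish 2, in all segments and over the calls made without it, a choice made after seeing the data. In segment 3 the median was then 47.2% over all genes that were higher and 45.7% over those lower. Endocytic receptors lay at -0.599%, hydrolases at 11.5%, membrane and sorting genes at 18.4% and pump subunits at -2.95%. Regional transcription factors that were higher lay at 73.0% and ribosomal proteins at 74.2%. Of the lists that were lower, fat absorption lay at 20.9%, retinoid genes at 8.44%, sugar genes at 24.2%, microvillus genes at 58.6%, citrate cycle genes at 69.2% and the respiratory chain at 126%.

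**Figure D5:**
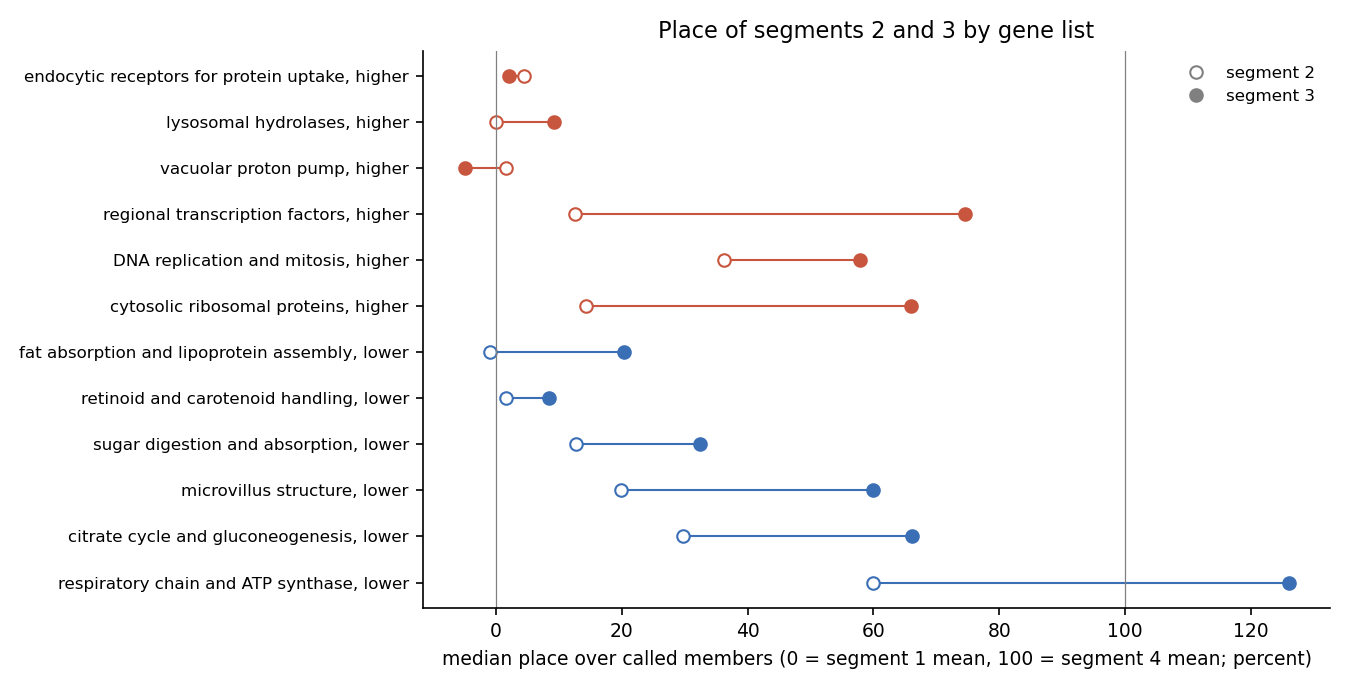
Median place of segment 2 (open circles) and segment 3 (filled circles) over the called members of each list, in percent of the way from the segment 1 mean (0) to the segment 4 mean (100), for genes higher (red) and lower (blue) in segment 4. Places were taken on log2(value + 1). The medians of endocytic receptors, hydrolases and proton pump subunits lie within 10% of segment 1 in segments 2 and 3, and regional transcription factors reach 74.5% in segment 3.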

How the data were processed

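Total RNA from the gut segments was sequenced from TruSeq RNA v2 libraries. Per the labels and the study's methods, the authors trimmed reads with cutadapt, checked them with FastQC 0.9.2, aligned them with TopHat to their own wrasse assembly, and used featureCounts (Subread) to count reads in gene models. Other versions and the strand setting were not given in the sources used. The deposited signal is a normalized read count: DESeq2 divided the reads of each library by its size factor, and 1 line without a gene model was left out. Multiplying back gave whole reads within 0.05 for 94.55% to 99.31% of the values of a library.

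The 12 libraries were tested with limma 3.58.1 (trend, two-sided) in R 4.3.3 on log2(value + 1), with Benjamini-Hochberg adjustment over 18299 gene models. edgeR 4.0.16 on the recovered reads called 2687 higher and 2479 lower, and DESeq2 1.42.0 was run too. The main fit had no fish block. Fish numbers pair the libraries by label: deviations of segments 1 and 4 from their means correlated at 0.294 to 0.502 within a fish (mean -0.081 between fish), and 6 of 6 segment 1 libraries correlated best with their own fish.

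Lists were matched by gene name, less look-alike names such as LRP1B and RRM2B. The comparison, the members and the lists were chosen with earlier results of these data known. The genes named were the 12 largest log2 fold changes each way with the same direction in 6 fish, up to 4 called members of each list with the highest means, the 10 highest means of each segment and genes with a model in the paper, and others are marked as picked after their values were seen. The p-values of the main fit set each difference against the spread between libraries within a segment. They do not use the pairing of segments by fish. Some genes that the rule names are not reported here. The code was tested on simulated data.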

Additional observations from a re-analysis of the deposited data

Results flagged for a closer look

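In each segment, the highest or lowest of the 6 values of a gene was set against its nearest neighbour for 98 gene models, and in 29 of 196 groups the share of the whole range taken by this gap exceeded Dixon's critical value. Chance flags about 1 in 20 groups, and genes of a library are not independent. Of the 29 values that stood apart, 23 belonged to segment 4 of fish 2.

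In genes higher in segment 4, the segment 4 library of fish 2 stood apart below the rest. It held 17445 for MRC1 against 61307 to 76104 in the other 5 fish, 3044 for CDX1 (LABE_00038637) against 5978 to 7241, 218 for SH3TC1 against 639 to 758 and 867 for tmem236 against 3110 to 3456.

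In genes lower in segment 4 the same library stood above the rest. Among highly expressed genes of segment 1 it held 86191 for the ice-structuring protein LS-12 against 731 to 1541, 61896 for SIDT2 against 2388 to 3628 and 4719 for Natterin-3 against 18.9 to 46.4. In lipid and sterol genes it held 36890 for apoeb (LABE_00047833) against 711 to 5622, 3161 for Sc5d against 380 to 614, 2795 for dhcr7 against 307 to 584, and 911 for CYP7A1 against 6.62 to 48.2. In sugar and retinoid genes it held 11866 for MGAM against 1486 to 4356, 5416 for LCT against 33.1 to 166, 6762 for BCO1 against 566 to 1068 and 6619 for RBP2 against 127 to 784.

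The remaining values of this library were 2192 for Scarb2 against 1139 to 1518, 3615 for CDX1 (LABE_00045324) against 2082 to 2549, 2861 for gata6-a against 1332 to 1689, and 2582 for Ladderlectin (LABE_00053483) against 48.2 to 254. It also held 512 for Vtcn1 (LABE_00042844) against 44.5 to 157, 1627 for Slc26a6 against 218 to 424, 325 for GUCA2A against 28.2 to 79.5, and 246 for SLC25A22 against 36.0 to 68.4.

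Other libraries stood apart in single genes. In segment 1, fish 4 held 58.0 for AMN against 15.2 to 30.1, fish 2 held 7873 for GCSH against 11367 to 12755, and fish 1 held 50.6 for ZP2 against 12.7 to 26.7. Fish 6 held 10845 for Ladderlectin (LABE_00064509) against 618 to 2525 there. Fish 5 of segment 1 held 825 for the motilin model LABE_00007846 against 1002 to 1100. In segment 4, fish 4 held 5.46 for pyya against 1.25 to 2.23.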

How the results depend on the processing

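Over all settings planned, from other pseudocounts, filters, scalings and tests to leaving out a fish, 1723 of 1761 log2 fold changes of the genes named kept their direction and their side of the threshold, 33 lost significance and 5 changed sign. All sign changes were of ccka (LABE_00001570), which was not called: its log2 fold change was -0.03, against 0.07 by edgeR, 0.06 by DESeq2, 0.05 with library weights and -0.16 to 0.17 with a fish left out. With settings added after seeing the data it was 0.05 without replicates 1 and 5 (with and without the replicate block), 0.15 without replicates 1, 2 and 5 and 0.01 with the replicate block and without replicate 2. Genes higher counted 1572 without replicates 1 and 5, of which 1466 had been called with all fish, and 1676 without replicates 1, 2 and 5. These have 8 and 6 libraries in place of 12. Leaving out 1 fish gave 1830 to 2527 higher and 2013 to 2560 lower. The replicate block gave 3280 higher and 3224 lower and ended no call of a gene named. ZP2 and ZP3 lost their calls without replicates 1, 2 and 5, Rpl3 there as well (0.49). Genes under the minimum value, 9093 models, were not tested.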

Other observations

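Gene models that share a name sometimes went opposite ways, and these were looked at after their values were seen. Of 3069 names carried by at least 2 tested models, 1532 had a model that was called, and 150 of these had a model higher and another lower in segment 4. Ladderlectin, a fish lectin of mucus and blood that binds microbes, had 8 tested models. LABE_00053483 had medians of 82842 in segment 1 and 171 in segment 4 and a log2 fold change of -8.43 (SE 0.77, limma adjusted p = 3.52e-06), or -9.06 without fish 2. LABE_00064509 had medians of 1585 and 110661 and a log2 fold change of 5.68 (SE 0.63, adjusted p = 1.90e-05). LABE_00068125 and LABE_00077322 were lower, LABE_00064508 was higher, and the other 3 did not pass.

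Meprin beta, a brush border protease, had models of both kinds. MEP1B (LABE_00001277) held 21567 to 47626 in segment 1 and 19.7 to 57.4 in segment 4, and LABE_00001936 was lower at -4.11. Mep1b (LABE_00047837) held 2.47 to 18.7 in segment 1 and 50.1 to 6107 in segment 4, a log2 fold change of 6.66 (SE 0.96, adjusted p = 0.000165) with its lowest segment 4 value in fish 2, without which it was 7.31. PLB1, a brush border phospholipase, had LABE_00006850 lower, with medians of 9751 and 45.7, at -7.10 (SE 1.10, adjusted p = 0.000304). LABE_00025919 was higher, from a median of 47.9 to one of 5716, at 7.14 (SE 0.28, adjusted p = 1.32e-09). LABE_00046817 and LABE_00075407 held 294 to 867 and 380 to 715 in segment 1, and at most 6.68 and 1.25 in segment 4. Both reached the minimum value only in segment 1. A second relaxin-3 model, Rln3 (LABE_00008843), was lower, with medians of 34.1 and 3.96, where LABE_00052570 was higher. Close copies may share reads, and the part of such sharing in these values was not tested.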
